A study of Mus musculus with 29 samples.

Results

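The data described here cover 7 genes for cytokines and chemokines that antigen-presenting cells use to call and activate T cells and natural killer cells: Il12a, Il12b, Il15, Il18, Cxcl9, Cxcl10 and Cxcl16. They are 7 of 21887 protein-coding genes in the annotation. They were chosen by name and not by a measured value, although earlier results of these data were known. For each gene, the regions of acetylated histone H3 lysine 27 (H3K27ac) and the binding peaks of the transcription factors IRF8 and CEBPA were collected within 50 kb of the gene span in 22 chromatin immunoprecipitation sequencing libraries. Merged over all libraries, 95 of 112928 H3K27ac regions fell in these windows.

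Il12a and Il12b encode the p35 and p40 chains of interleukin-12, which drives interferon-gamma production; the p40 chain also forms part of interleukin-23. Interleukin-15 sustains natural killer and memory CD8 T cells, and interleukin-18 is made as a precursor that caspase-1 cleaves. CXCL9 and CXCL10 are interferon-induced ligands of CXCR3, while CXCL16, a membrane-bound chemokine that metalloproteases can release, is the ligand of CXCR6. Classical type 1 dendritic cells (cDC1), which depend on IRF8 and BATF3, are known as a source of interleukin-12, CXCL9 and CXCL10. H3K27ac marks active promoters and enhancers, IRF8 belongs to the interferon regulatory factors and is required to form cDC1 and monocytes. CEBPA is a basic leucine zipper factor of myeloid progenitors and monocytes.

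The study profiled H3K27ac in 7 groups of 2 libraries from C57BL/6 mice. Wild-type cells were LSK (lineage-negative, Sca1+, CD117+ stem and progenitor cells), LMPP (lymphoid-primed multipotent progenitors) and splenic cDC1 sorted as XCR1+ CD172a-. Mice lacking an enhancer 56 kb downstream of Irf8 (d+56kb) gave LMPP, GMP (granulocyte-monocyte progenitors) and MDP (monocyte-dendritic cell progenitors), and IRF8-deficient mice (IRF8KO) gave LMPP. All progenitors came from bone marrow. No wild-type GMP or MDP were analysed here, so the enhancer deletion is shared by every GMP and MDP library. IRF8 and CEBPA were each profiled in 2 libraries of wild-type splenic cDC1 and 2 of wild-type bone marrow monocytes (Mo). These cells were enriched with magnetic beads and not sorted by flow cytometry: CD8a+ cells depleted of Thy1.2, B220 and CD49b for cDC1, and CD115+ cells for Mo. Ages are not given in the labels, and although the series calls the libraries biological duplicates, it does not state that they are from different animals, so p-values may measure technical spread only. In bulk chromatin, fewer cells carrying a mark and less mark per cell cannot be told apart.

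H3K27ac libraries held 1.26 (IRF8KO LMPP library 1) to 10.9 M tags (cDC1 library 2) and covered 17.7 to 52.1 Mb with called regions. The cDC1 duplicates differed: 52.3% of the tags of library 1 and 16.4% of those of library 2 lay in called regions. At the deleted Irf8 enhancer, within 2 kb of the +56 kb position, the 6 wild-type libraries had 642 to 2313 covered bases. All 6 d+56kb libraries had 0 there, as had both IRF8KO libraries, in which the loss of the protein itself is not something H3K27ac can check. Summed over 10 cDC1 marker genes, cDC1 libraries had 194 to 195 scaled kb at the loci, against 20.3 to 48.4 elsewhere, although Clec9a, a defining marker, was listed at 0 in every group when regions were given to the nearest gene. Summed over 8 stem and progenitor markers, cDC1 had 20.2 to 21.9 scaled kb and the other groups 58.1 to 157. Summed over 8 monocyte markers, MDP had 54.2 to 55.7 scaled kb and GMP 33.3 to 34.8, against 6.53 to 14.4 in the other groups. In cDC1, 7 of 8 neutrophil markers were listed at 0, as were the B cell genes Cd79a and Cd79b. The part of these differences in the results below was not tested.

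Promoters of 4 of these genes are shown because IRF8 peaks of cDC1 covered them, in both libraries at Il12b and Cxcl9 and in library 1 alone at Cxcl10 and Il12a, of which Il12a had no called acetylation in cDC1. Each sequence is the 250 bases before the annotated start from RefSeq (GRCm38.p6), 5′ to 3′ on the gene's strand. The table matched 5 of the 7 genes, all but Il15 and Cxcl16. Capitals mark matches to the motifs named after the sequences.
Il12b promoter, chr11:44399813-44400062, plus strand: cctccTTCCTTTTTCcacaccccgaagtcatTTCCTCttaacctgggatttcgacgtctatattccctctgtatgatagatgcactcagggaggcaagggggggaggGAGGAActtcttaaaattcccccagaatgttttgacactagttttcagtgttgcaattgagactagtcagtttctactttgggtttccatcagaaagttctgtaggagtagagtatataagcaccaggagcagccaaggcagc
Cxcl9 promoter, chr5:92328080-92328329, minus strand: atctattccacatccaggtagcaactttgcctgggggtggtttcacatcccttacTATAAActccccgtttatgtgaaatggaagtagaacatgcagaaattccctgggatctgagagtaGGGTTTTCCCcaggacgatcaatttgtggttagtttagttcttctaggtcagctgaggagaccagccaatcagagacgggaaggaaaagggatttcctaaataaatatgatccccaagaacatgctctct
Cxcl10 promoter, chr5:92348890-92349139, minus strand: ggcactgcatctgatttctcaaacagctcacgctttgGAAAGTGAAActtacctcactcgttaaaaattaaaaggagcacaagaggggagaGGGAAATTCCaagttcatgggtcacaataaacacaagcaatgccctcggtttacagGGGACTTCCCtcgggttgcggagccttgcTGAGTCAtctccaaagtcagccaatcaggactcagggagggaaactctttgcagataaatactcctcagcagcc
Il12a promoter, second annotated start, chr3:68691174-68691423, plus strand: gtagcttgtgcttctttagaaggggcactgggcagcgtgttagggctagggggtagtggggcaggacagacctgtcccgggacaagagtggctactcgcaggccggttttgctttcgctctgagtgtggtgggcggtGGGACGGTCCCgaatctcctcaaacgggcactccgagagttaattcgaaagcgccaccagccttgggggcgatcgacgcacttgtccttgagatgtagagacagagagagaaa

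Motifs were searched on both strands of the bases from 250 before to 50 after each start. The letters were GAAA, any 2 bases, GAAA for the interferon-stimulated response element (ISRE), GGAA, any 2 bases, GAAA and GAAA, any 2 bases, GGAA for ETS-IRF and IRF-ETS composites, TGANTCA for AP-1, TTGCNNAA for CEBP, GGGA, any 4 bases, CC or GGGGA, any 2 bases, CCC for NF-kB, GAGGAA for PU.1 and TATAAA for a TATA box. Composites of AP-1 with IRF letters were searched too (0.244% of promoters) and had no match here. The Cxcl10 promoter held the ISRE letters 213 bases before the start (3.44% of 32851 promoters hold them), NF-kB letters at 159 and 103 bases before it (21.4% of promoters) and AP-1 letters at 74 bases before it (7.81%). In the Cxcl9 promoter, NF-kB letters on the opposite strand began 130 bases and TATA letters (13.6%) 195 bases before the start. The Il12b promoter held the IRF-ETS letters (2.8%) on the opposite strand 245 bases before the start, and PU.1 letters (28.3%) at 219 and 143 bases before it. In the Il12a promoter only NF-kB letters were found, beginning 113 bases before the second start and overlapping a match on the other strand. Outside the printed stretches, AP-1 letters lay after the Cxcl9 start and NF-kB letters after the second Il12a start. Of the Il12b promoter, 153 and 175 of 250 bases lay under an IRF8 peak of cDC1 libraries 1 and 2. For Cxcl9 the values were 229 and 185 bases, for Cxcl10 240 bases in library 1 and 0 in library 2, and for Il12a 248 and 0. No Mo IRF8 peak overlapped these 4 promoters, and CEBPA peaks overlapped that of Cxcl10 alone, over 250 and 230 bases in the 2 Mo libraries. A match is a description of the letters and not a mapped site.

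The level of a gene is given below as scaled kb: the bases that a library's called H3K27ac regions cover within 50 kb of the gene span, after each library was brought to the same total covered length. It measures how much sequence was called, not the height of the signal, and since windows differ in length it is compared between groups and not between genes. Groups were compared with limma on log2(scaled bases + 1000) over 19227 genes and all 14 libraries. Adjusted p-values are Benjamini-Hochberg values over all genes tested, with a threshold of 0.05. A positive log2 difference means more acetylated sequence in the group named first, and the difference understates the change where levels are low.

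**Figure D1:**
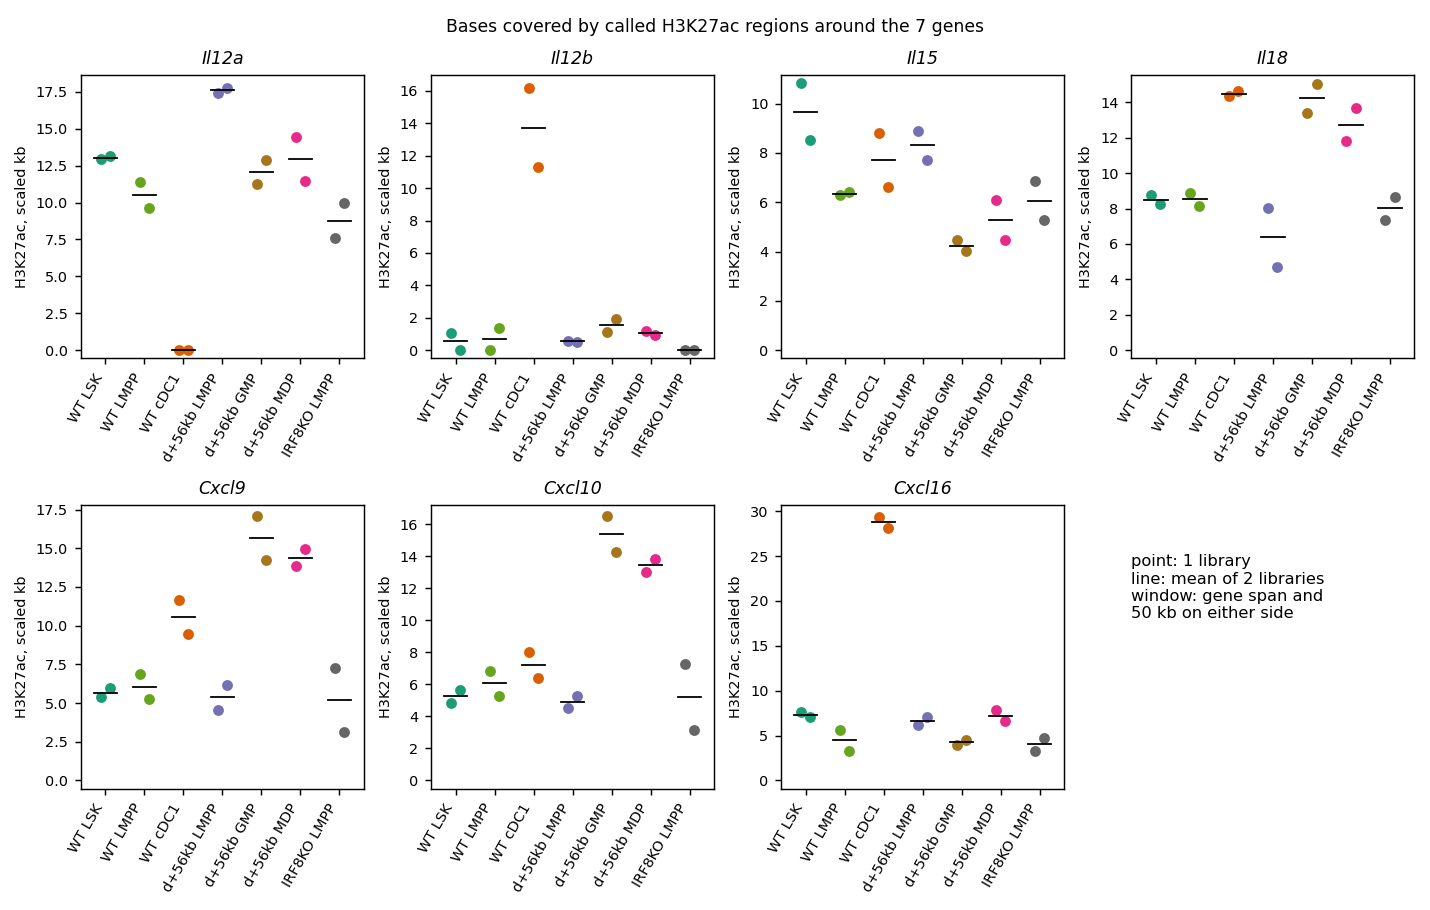
Scaled kb of called H3K27ac regions (vertical axis, starting at 0) in each of 14 libraries in 7 groups (horizontal axis), with 1 panel per gene; points are libraries and lines the means of 2. Il12a is at 0 and Il12b and Cxcl16 are at their highest in cDC1, Il18 is high in cDC1, GMP and MDP, and Cxcl9 and Cxcl10 are highest in GMP and MDP.

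The 2 chains of interleukin-12 had opposite patterns in cDC1. Il12a (chr3:68690644-68698550, mm10) had no called H3K27ac region within 50 kb in either cDC1 library, against 12.95 and 13.2 scaled kb in LSK and 11.4 and 9.62 in wild-type LMPP. Il12b (chr11:44400063-44414677) had 16.2 and 11.3 scaled kb in cDC1, against 1.08 and 0 in LSK and 0 and 1.39 in LMPP. For both genes the cDC1 libraries stood apart from all 12 progenitor libraries.

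In the other groups Il12a had 17.4 and 17.8 scaled kb in d+56kb LMPP, 11.3 and 12.9 in GMP, 14.5 and 11.4 in MDP, and 7.57 and 9.94 in IRF8KO LMPP. The d+56kb LMPP libraries were the highest, MDP overlapped LSK and GMP below them, and wild-type LMPP overlapped GMP above it and IRF8KO LMPP under it. Il12a had 15 merged regions in its window and 0 of them in cDC1. The widest, 9032 bases around the start (chr3:68687267-68696298), was called in all 12 progenitor libraries with 2351 to 8047 bases. A second region of 5122 bases centred 12.97 kb upstream (chr3:68675110-68680231) was also called in all 12. Another, 15.0 kb downstream of the first start, was called in LSK, LMPP of wild-type and d+56kb mice, both GMP libraries and 1 MDP library, but in neither IRF8KO library.

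Il12a was the only one of the 7 genes with a single reproducible IRF8 peak of cDC1, called in both libraries 43.7 kb upstream. A CEBPA peak of both Mo libraries overlapped the same place, where GMP and MDP had acetylation in both of their libraries and cDC1 in neither. Another IRF8 peak, 47.6 kb upstream, was called in both Mo libraries and no cDC1 library. These distal peaks lie nearer to Iqschfp than to Il12a.

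Il12b had 0.575 and 0.496 scaled kb in d+56kb LMPP, 1.14 and 1.94 in GMP, 1.18 and 0.914 in MDP, and was listed at 0 in both IRF8KO libraries. None of these groups came near cDC1, and their values ran into each other. In cDC1, 5 regions were called in both libraries, centred 45.1 and 20.2 kb upstream and 15.9, 38.5 and 47.1 kb downstream of the start. The widest (chr11:44376182-44383551, 20.2 kb upstream) had 7370 and 3824 bases in cDC1, 501 in each GMP library, 501 in 1 MDP library and 672 in 1 LSK library. The region just past the 3′ end of the gene (chr11:44413733-44418280) had 4396 and 2366 bases in cDC1 and was called in no other library, as was that at 38.5 kb, with 2246 and 1189 bases. At the start itself, acetylation was called in cDC1 library 1 (1851 bases) and not in library 2.

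All 5 of these Il12b regions held an IRF8 peak of both cDC1 libraries. In total 7 IRF8 peaks were called in both cDC1 libraries, at 45.0, 22.0, 17.7 and 0.23 kb upstream and 15.0, 38.0 and 47.3 kb downstream of the start. The peak 0.23 kb upstream covers most of the promoter printed above. In Mo, 0 IRF8 peaks were called in both libraries and 1 in library 2, at 38.0 kb downstream. Mo had 4 CEBPA peaks in both libraries, 2 of which, 22.0 kb upstream and 38.0 kb downstream, overlapped IRF8 peaks of both cDC1 libraries, and another, 43.7 kb upstream, an IRF8 peak of 1 cDC1 library. The 2 most distal downstream regions lie nearer to Ublcp1, a phosphatase gene.

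**Figure D2:**
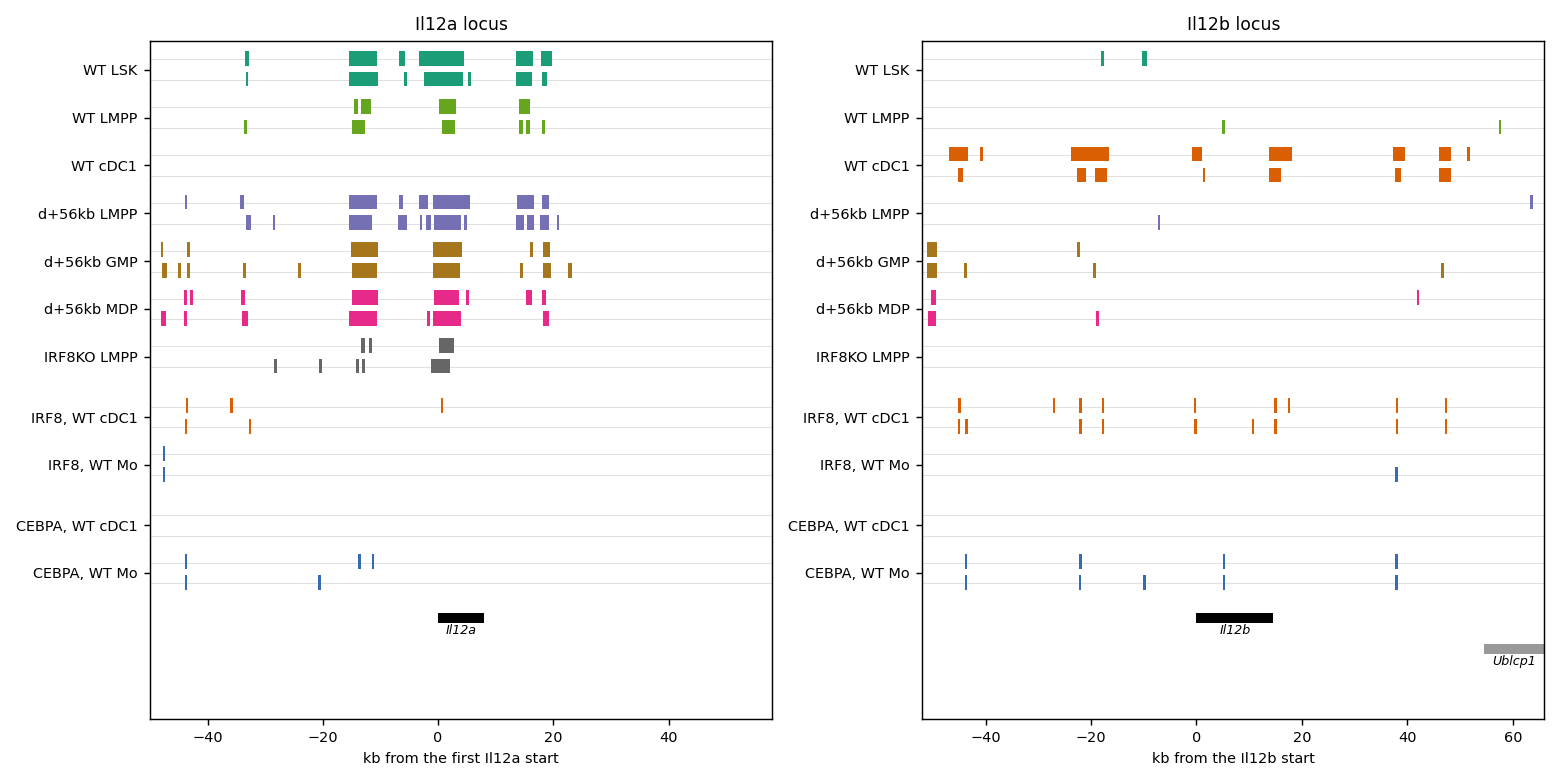
Called H3K27ac regions of 14 libraries (upper rows, 2 per group) and IRF8 and CEBPA peaks of 8 libraries (lower rows) by distance in kb from the start of Il12a (left) or Il12b (right); very narrow items are drawn wider to be visible, and bars below are gene spans. The cDC1 rows are empty at Il12a, while at Il12b they hold 5 regions called in both libraries, each above a cDC1 IRF8 peak.

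Interleukin-15 and interleukin-18 genes were acetylated in every group. Il15 (chr8:82331624-82403252) had 10.8 and 8.52 scaled kb in LSK, 8.825 and 6.598 in cDC1, 6.288 and 6.404 in wild-type LMPP, and 8.90 and 7.72 in d+56kb LMPP. GMP had 4.47 and 4.02, MDP 6.07 and 4.48, and IRF8KO LMPP 6.85 and 5.28. LSK was highest on average and GMP lowest, with neighbouring groups in the order overlapping, except that wild-type LMPP lay below both cDC1 values and GMP just below both MDP values.

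Within Il15 the places differed more than the sum. A region of 5318 bases inside the gene (chr8:82371872-82377189) had 5318 and 3597 bases in cDC1, 1266 and 501 in LSK, and 501 in 1 MDP library, and was not called in the other 9 libraries. The neighbouring region of up to 8080 bases (chr8:82381944-82390023) had 7895 and 5356 bases in LSK but 2457 and 648 in cDC1. The region at the upper end of the span (chr8:82398537-82403991), was called in all 14 libraries with 677 to 5395 bases. Reproducible IRF8 peaks of cDC1 numbered 7 at Il15, of which 1 lay in the cDC1-wide region and 2 in the LSK-wide one. Of these 7, 2 were also called in both Mo libraries, and 4 CEBPA peaks were called in both Mo libraries.

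Il18 (chr9:50554700-50581841) had 14.4 and 14.6 scaled kb in cDC1, 13.4 and 15.1 in GMP, and 11.8 and 13.7 in MDP. It had 8.75 and 8.23 in LSK, 8.86 and 8.17 in wild-type LMPP, 8.04 and 4.70 in d+56kb LMPP, and 7.36 and 8.67 in IRF8KO LMPP. The cDC1, GMP and MDP libraries all lay above the other 8. The cDC1 values lay within the GMP range, and MDP overlapped GMP but lay below cDC1.

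The Il18 window holds 8 other protein-coding genes, and most of its regions lie nearer to one of them. At the start, a region of 5294 bases (chr9:50551105-50556398) lay over the Il18 start and the end of the span of Bco2, which reaches 0.51 kb into Il18. It had 5294 and 4863 bases in cDC1, 3127 and 2518 in LSK, 1667 and 4296 in MDP, and 501 and 643 in GMP. The region was thus called in all 14 libraries and was widest in cDC1, although in both GMP libraries and IRF8KO library 1 its called part began just past the start. GMP and MDP were covered more widely than cDC1 at 37.3 kb downstream, near Sdhd, a mitochondrial complex II gene, with 2924 and 3768 bases in GMP and 2233 and 2005 in MDP against 1442 and 1467 in cDC1. An IRF8 peak 0.19 kb past the Il18 start was called in all 4 IRF8 libraries, both cDC1 and both Mo. Another inside the gene, at 12.9 kb, was also called in all 4 and lay under acetylation in 1 GMP and 1 MDP library and in no cDC1 library.

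The CXCR3 ligand cluster differed gene by gene. Cxcl9 (chr5:92321331-92328079) and Cxcl10 (chr5:92346638-92348889) lie close together on the minus strand, with Cxcl10 inside the span of Art3. Their windows share 11 merged regions, 64.7% of the 17 at Cxcl9 and 84.6% of the 13 at Cxcl10. Cxcl9 had 11.7 and 9.45 scaled kb in cDC1, 17.1 and 14.3 in GMP, and 13.9 and 14.9 in MDP. It had 5.41 and 5.96 in LSK, 6.86 and 5.25 in wild-type LMPP, 4.55 and 6.19 in d+56kb LMPP, and 7.28 and 3.12 in IRF8KO LMPP. GMP and MDP overlapped at the top, cDC1 came next, and LSK and the 3 LMPP groups overlapped below.

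Cxcl10 had 8.01 and 6.401 scaled kb in cDC1, 16.5 and 14.3 in GMP, 13.01 and 13.84 in MDP, and 4.83 and 5.67 in LSK. Values were 6.86 and 5.25 in wild-type LMPP, 4.55 and 5.28 in d+56kb LMPP, and 7.28 and 3.12 in IRF8KO LMPP. For Cxcl10 GMP was highest and MDP just below it, without overlap, and cDC1 overlapped wild-type and IRF8KO LMPP.

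Read at the genes themselves, the 2 chemokines parted. The Cxcl9 start carried a region (chr5:92327140-92329967) of 2828 and 2196 bases in cDC1 that was called in no other library, over 2 IRF8 peaks of both cDC1 libraries 0.18 and 0.84 kb upstream. Neither peak was called in Mo. Acetylation at the Cxcl10 start (chr5:92348265-92349752) was called in both LSK libraries (1317 and 501 bases) and in 1 library each of cDC1 (501), GMP (629) and MDP (911). An IRF8 peak 0.8 kb upstream of Cxcl10 was called in both cDC1 libraries, and a CEBPA peak 0.14 kb upstream in both Mo libraries, over the promoter printed above. No IRF8 peak of Mo was called at either place. Cxcl11, which names a further CXCR3 ligand, is listed as a transcribed pseudogene in the annotation used here. Its span and 1 kb on either side held 0 covered bases in all 14 H3K27ac libraries and 0 IRF8 or CEBPA peaks.

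GMP and MDP had their own places in the cluster. Regions centred 9.38 kb downstream and 4.02 kb upstream of the Cxcl9 start were called in all 4 GMP and MDP libraries and in no other, and one 5.01 kb downstream, inside Cxcl9, in both GMP libraries only. Each of these 3 held a CEBPA peak of both Mo libraries. The widest region of the cluster, 9370 bases (chr5:92367233-92376602), lay 23.0 kb upstream of Cxcl10, inside the span of Art3. It had 9234 and 8331 bases in GMP and 7410 and 8463 in MDP, against 653 to 3397 in the other libraries. This region counts towards both genes and held 2 IRF8 peaks of both cDC1 libraries and 2 CEBPA peaks of both Mo libraries. Part of the cDC1 value at Cxcl9 lay near other genes: regions near Naaa and Sdad1, 49.7 and 19.3 kb downstream, had 3675 and 1980, and 3142 and 1725 bases.

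**Figure D3:**
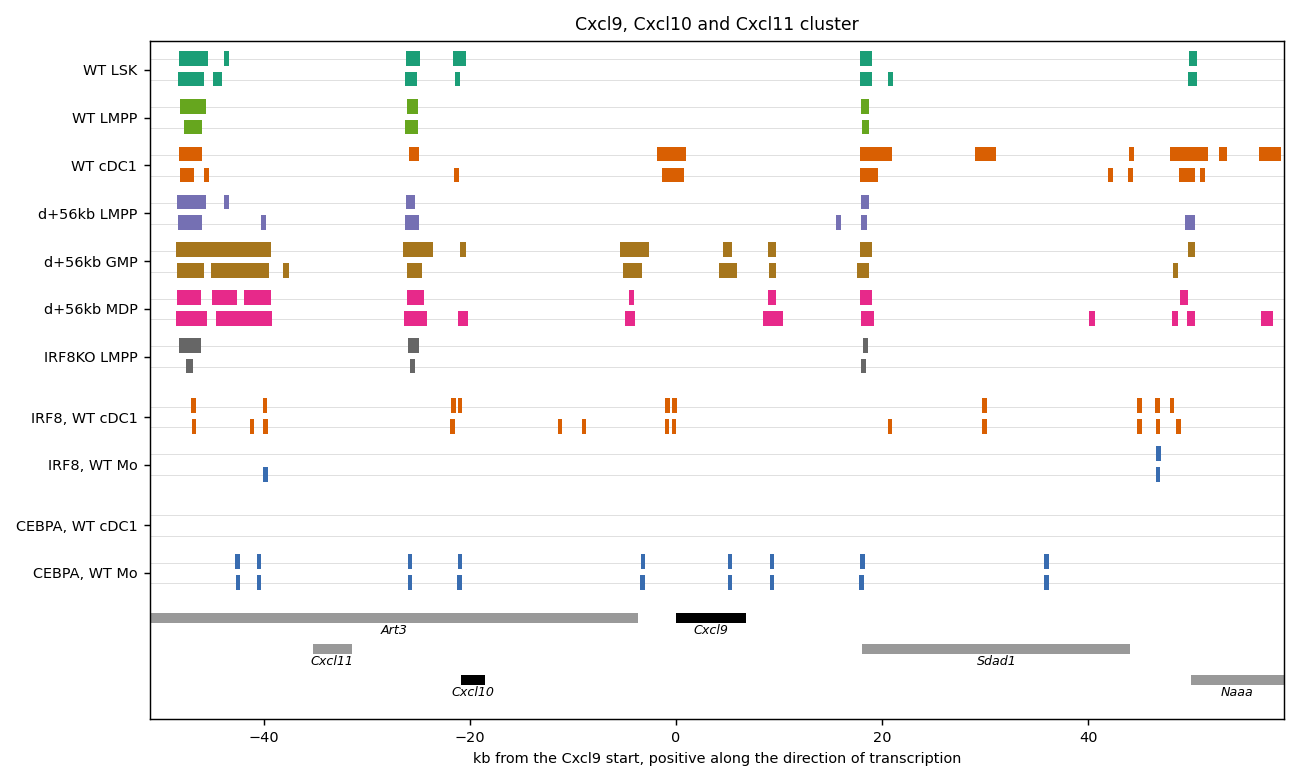
Called H3K27ac regions of 14 libraries (upper rows) and IRF8 and CEBPA peaks of 8 libraries (lower rows) by distance in kb from the Cxcl9 start, positive along its direction of transcription; very narrow items are drawn wider to be visible, and bars below are gene spans. At 0 kb the 2 cDC1 libraries alone hold a region, above 2 cDC1 IRF8 peaks, and the broad GMP and MDP region lies at -43.8 kb, beyond Cxcl11.

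Cxcl16 was broadly acetylated in cDC1 and little elsewhere. The gene (chr11:70454389-70459984) had 29.4 and 28.1 scaled kb in cDC1, 7.63 and 7.05 in LSK, and 5.66 and 3.25 in wild-type LMPP. It had 6.15 and 7.08 in d+56kb LMPP, 3.99 and 4.48 in GMP, 7.81 and 6.64 in MDP, and 3.31 and 4.79 in IRF8KO LMPP. The cDC1 libraries lay far above the rest, which ran from 3.25 to 7.81 without a clear order.

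The Cxcl16 span itself was covered over 5596 and 4679 bases in cDC1 and over 0 bases in the other 12 libraries. It is part of a region of 9772 bases (chr11:70451298-70461069) whose lower part, over Med11, a Mediator subunit gene, was called in all 14 libraries. Of 18 merged regions in the window, 17 were called in at least 1 cDC1 library, 9 in both, and 5 in both cDC1 libraries and nowhere else. The widest of these 5 lay above the span, nearer to Zmynd15 (chr11:70464665-70470157, with 5493 and 4956 bases) and to Tm4sf5 (chr11:70494297-70500407, with 6111 and 5737 bases). Reproducible IRF8 peaks of cDC1 numbered 8, among them 1 at the upper end of the Cxcl16 span that was also called in both Mo libraries. The span of Zmynd15 begins 5.04 kb above the lower end of Cxcl16, so this peak overlaps both spans. Of the 9 regions called in both cDC1 libraries, 6 held an IRF8 peak of both. Mo had 3 CEBPA peaks in both libraries, of which 2, near Arrb2 and Zmynd15, overlapped IRF8 peaks of both cDC1 libraries.

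**Figure D4:**
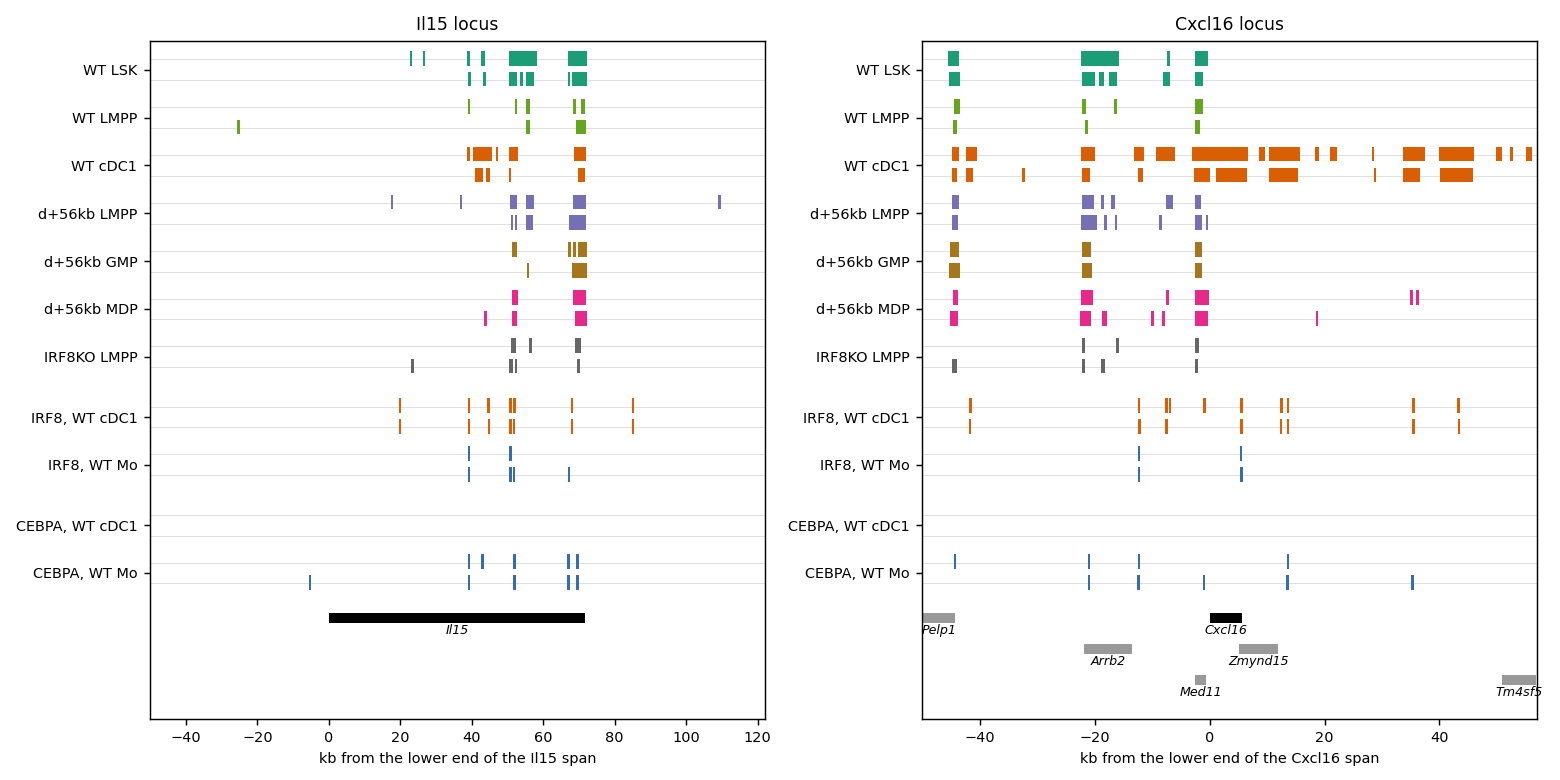
Called H3K27ac regions of 14 libraries (upper rows) and IRF8 and CEBPA peaks of 8 libraries (lower rows) by distance in kb from the lower end of the span of Il15 (left) or Cxcl16 (right); very narrow items are drawn wider to be visible, and bars below are gene spans. At Il15 regions lie inside the gene in every group, and at Cxcl16 the span and the sequence above it are covered in the 2 cDC1 libraries, with 3 narrow MDP regions besides.

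Splenic cDC1 were compared with wild-type LMPP and with LSK to ask how acetylation at these genes differs between the mature cell and stem and progenitor cells. Against LMPP, 5 of the 7 genes passed the test, 4 higher and Il12a lower, where 35.0% of all genes tested were called (14.4% higher and 20.6% lower). Il12b was higher by 3.23 ± 0.42 (log2 difference ± SE, n = 2 libraries a group; limma, adjusted p = 4.23e-05), Cxcl16 by 2.48 ± 0.21 (adjusted p = 1.01e-06), Il18 by 0.71 ± 0.19 (adjusted p = 0.00967) and Cxcl9 by 0.72 ± 0.26 (adjusted p = 0.0477). Il12a, listed at 0 in cDC1, fell from a mean of 10.5 ± 1.25 scaled kb (SD, n = 2; limma, adjusted p = 1.38e-08) and is given without a fold. For Il15 the log2 difference was 0.23 (95% interval -0.19 to 0.65) and for Cxcl10 0.22 (-0.33 to 0.77). The median over the 7 genes was 0.71, against -0.15 over all genes.

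The calls differed in how firm they were. Those of Il12a, Il12b and Cxcl16 held without any one of the 4 libraries. The Cxcl9 call was lost without any one of them (limma, adjusted p = 0.0603 to 0.24), with a pseudocount of 250 bases (0.0643) and with no filter on genes (0.134). With only regions called in both libraries, Cxcl9 differed by 0.15 (adjusted p = 0.661). Readings closer to the gene kept the Cxcl9 call: with windows of 20 kb it was 1.29 higher (limma, adjusted p = 0.000602). It also passed when each region was given to the nearest gene (adjusted p = 0.00035), where it was listed at 0 in both LMPP libraries. The Il18 call was lost without LMPP library 2 (adjusted p = 0.0519) or cDC1 library 2 (adjusted p = 0.0521), and when each region was given to the nearest gene its difference was 0. In that nearest-gene reading Il18 had 0 kb in every cDC1 and wild-type LMPP library, and the region over its start went to Bco2. With windows of 20 kb, Il18 was 1.04 higher and did not pass (adjusted p = 0.0735). When libraries were not scaled, the all-gene median went from -0.15 to 0.29, calls went from 2767 higher and 3968 lower to 5870 and 1339, and Il15 and Cxcl10 were called higher, by 0.91 and 0.89.

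Against LSK, the second comparison of the same cDC1 libraries, 5 genes were called, 4 higher and Il12a lower, and the background was 32.4% (13.1% higher and 19.3% lower). Il12b was higher by 3.33 ± 0.42 (limma, adjusted p = 3.57e-05), Cxcl16 by 1.84 ± 0.21 (adjusted p = 1.68e-05), Cxcl9 by 0.79 ± 0.26 (adjusted p = 0.0333) and Il18 by 0.71 ± 0.19 (adjusted p = 0.00961), while Il12a fell from 13.05 ± 0.146 scaled kb to 0. For Il15 the log2 difference was -0.30 (95% interval -0.72 to 0.12) and for Cxcl10 0.39 (-0.16 to 0.94). Here too Cxcl9 did not pass without any one of the 4 libraries (adjusted p = 0.0646 to 0.189), nor with no filter (0.11). Il18 did not pass without LSK library 2 (adjusted p = 0.0684) or cDC1 library 2 (adjusted p = 0.0559), nor with windows of 20 kb (0.0769), and differed by 0 in the nearest-gene reading. In that reading Il18 had 0 kb in both LSK libraries as well. Cxcl9 was 1.34 higher with windows of 20 kb (limma, adjusted p = 0.000477). It also passed in the nearest-gene reading (adjusted p = 0.000378), where it was listed at 0 in both LSK libraries. The comparisons share their cDC1 libraries. Without scaling, higher and lower calls over all genes went from 2527 and 3702 to 1807 and 4750, and Il18 and Cxcl9 did not pass (adjusted p = 0.177 and 0.134).

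Within enhancer-deleted mice, MDP were compared with LMPP. Cxcl10 was higher in MDP by 1.29 ± 0.26 (limma, adjusted p = 0.00358), Cxcl9 by 1.28 ± 0.26 (adjusted p = 0.00419) and Il18 by 0.93 ± 0.19 (adjusted p = 0.00371), so 3 of 7 were called against a background of 16.7% (8.44% higher and 8.22% lower). The 2 chemokine values rest on largely the same regions and are not independent. Il15 was lower by 0.58 and Il12a by 0.42 on the log2 scale, and neither passed (adjusted p = 0.0593 and 0.103). The Cxcl9 call was lost without d+56kb LMPP library 1 (adjusted p = 0.0543) and the Il18 call without d+56kb LMPP library 2 (adjusted p = 0.0535), with windows of 20 kb (0.0618) and in the nearest-gene reading (0.0544). With windows of 20 kb Il12a was called lower (-0.55, adjusted p = 0.0338), and with the replicate block Il15 was (-0.58, adjusted p = 0.0279). When each region was given to the nearest gene alone, Cxcl10 had no region in any library. Its span lies inside that of Art3 (chr5:92331799-92414628), and the region over the Cxcl10 start was given to Art3. The empty reading therefore does not show that Cxcl10 lacks acetylation.

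Between MDP and GMP no gene of the 7 passed (1 had an unadjusted p under 0.05), and 2.42% of all genes were called (1.32% higher and 1.1% lower). Cxcl16 came closest, with 7.22 ± 0.83 scaled kb in MDP and 4.24 ± 0.35 in GMP and a log2 difference of 0.65 (95% interval 0.2 to 1.1; limma, adjusted p = 0.15). With windows of 20 kb it passed, with a log2 difference of 1.07 (adjusted p = 0.0387). For Cxcl9 and Cxcl10 the differences were -0.11 (-0.67 to 0.45) and -0.18 (-0.73 to 0.37).

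Loss of the Irf8 enhancer and loss of IRF8 were each compared with wild type in LMPP. In d+56kb LMPP 0 of 7 genes were called by limma, 3 had an unadjusted p under 0.05, and the background was 0.536% (0.442% higher and 0.0936% lower). Il12a had the largest difference, 17.6 ± 0.24 against 10.5 ± 1.25 scaled kb, or 0.70 on the log2 scale (95% interval 0.34 to 1.06; adjusted p = 0.0806), with no overlap of the libraries. Cxcl16 was at 0.51 (0.06 to 0.96; adjusted p = 0.263) and Il18 at -0.41 (-0.81 to 0; adjusted p = 0.331). The d+56kb LMPP libraries covered 35.03 to 38.1 Mb in all and the wild-type ones 22.2 to 25.0 Mb. Without scaling, which moved the median of all genes from -0.01 to 0.41, Il12a, Il15 and Cxcl16 were called higher, Il18 was at 0.15, and calls over all genes went from 85 higher and 18 lower to 3137 and 115.

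In IRF8KO LMPP 0 of 7 genes were called and 0 had an unadjusted p under 0.05, against a background of 7.81% (2.64% higher and 5.17% lower). Il12b was listed at 0 in both IRF8KO libraries and in 1 of 2 wild-type libraries. The log2 differences of the other 6 ran from -0.26 (Cxcl9 and Cxcl10) to -0.07 (Il15). Cxcl9 and Cxcl10 had the same scaled kb in every wild-type and IRF8KO LMPP library, from shared regions, so their differences are 1 observation. These 2 chemokine genes were called lower, by -0.77 each, when IRF8KO library 1 was left out (limma, adjusted p = 0.0328 and 0.0262). The IRF8KO libraries were the shallowest, with 1.26 and 1.47 M tags, and the part of depth in these values was not tested. Over all genes, calls went from 508 higher and 994 lower to 81 and 1190 without scaling.

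**Figure D5:**
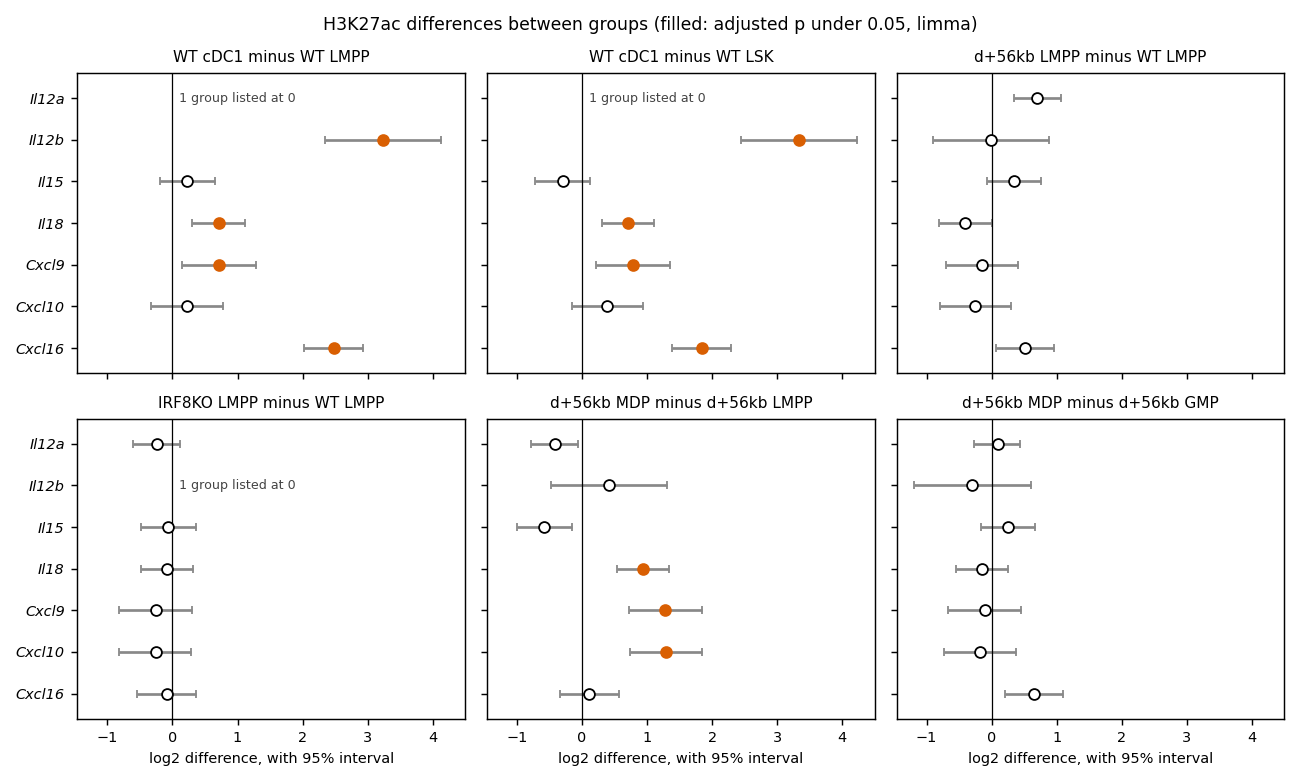
Log2 differences of scaled H3K27ac coverage (horizontal axis) with 95% intervals for the 7 genes (rows) in 6 comparisons (panels); filled points passed an adjusted p of 0.05 in limma and open points did not. No fold is drawn where a group was listed at 0; Il12b and Cxcl16 lie farthest to the right in cDC1, and no point is filled in the 2 genotype panels.

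Counted over the 7 windows without repeats, 37 IRF8 peaks were called in both cDC1 libraries, 9 IRF8 peaks in both Mo libraries, 24 CEBPA peaks in both Mo libraries and 0 CEBPA peaks in both cDC1 libraries. All 7 genes had at least 1 reproducible cDC1 IRF8 peak, as did 61.2% of all genes. Of the 7, 6 had 6 to 8, where the median gene had 1 and 5.99% of genes had at least 6. These counts are not independent, since the 6 peaks at Cxcl10 were all counted at Cxcl9 too. The Il15 window, at 171.6 kb, was the longest of the 7. As many as 8, the count at Cxcl9 and Cxcl16, were found at 2.23% of genes. Reproducible Mo IRF8 peaks were found at 5 of 7 genes (26.7% of all genes), with the highest count, 3, at Il18. The Mo libraries had 5135 and 6322 IRF8 peaks in all and those of cDC1 25172 and 25919, called without input. All 7 genes had a reproducible Mo CEBPA peak, against 57.5% of all genes, and the 9 at Cxcl9 were reached by 0.731% of genes. The cDC1 CEBPA libraries had only 166 and 72 peaks genome-wide, and 0.0274% of genes had a reproducible one.

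Of the 37 cDC1 IRF8 peaks, 21 (56.8%) overlapped H3K27ac of both cDC1 libraries, against 37.8% of 19296 such peaks genome-wide. In the other direction, 19 of 29 regions acetylated in both cDC1 libraries (65.5%) held a reproducible IRF8 peak, against 40.5% of 17005. As for sites shared with monocytes, 8 of the 37 (21.6%) were also IRF8 peaks of both Mo libraries, against 17.9% of all. A CEBPA peak of both Mo libraries overlapped 8 of the 37 (21.6%), against 12.2%. Of the 24 Mo CEBPA peaks, 12 were acetylated in both GMP libraries, against 44.4% of such peaks genome-wide. These shares are descriptions, and the windows were not chosen at random.

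Other genes of the same pathways were taken from 4 lists of 60 genes: related cytokines and chemokines, receptors and binding proteins, signalling and processing, and inducing factors. In all, 59 were tested. In cDC1 against LMPP, 14 were called higher and 15 lower, where 14.4% and 20.6% of all genes were. Of 12 receptors and binding proteins, 1 was higher and 7 lower, with a median log2 difference of -0.60 against -0.15 over all genes. The 1 higher was Cxcr6, the receptor of CXCL16, at 24.6 ± 2.50 scaled kb in cDC1 and 3.11 ± 0.09 in LMPP (2.64 ± 0.19; limma, adjusted p = 2.8e-07). With windows of 20 kb Cxcr6 was 2.46 higher (adjusted p = 0.000216). In the nearest-gene reading Cxcr6 was not tested, since fewer than 2 libraries had a region given to it, and its regions lay nearer to other genes. Ifng, the cytokine that induces CXCL9 and CXCL10, was listed at 0 in cDC1 and had 5.28 ± 0.06 in LMPP (adjusted p = 0.000267), although with windows of 20 kb its difference was 0.

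Of 16 inducing factors, 6 were higher in cDC1 than in LMPP and 2 lower. Batf3, an AP-1 factor that cDC1 need, rose by 3.67 ± 0.28 (limma, adjusted p = 5e-07) and Irf8 by 2.64 ± 0.34 (adjusted p = 4.01e-05). Among 19 signalling and processing genes, 5 were higher and 3 lower. Jak2, a kinase of the interleukin-12 receptor, rose by 2.13 ± 0.16 (adjusted p = 4.68e-07).

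Against LSK, 12 of the 59 were higher in cDC1 and 17 lower, where 13.1% and 19.3% of all genes were. Il18r1 and Il18rap, the chains of the interleukin-18 receptor, which lie side by side and share regions, fell by 2.20 and 2.25 on the log2 scale (limma, adjusted p = 5.13e-05 and 1.76e-05). In MDP against d+56kb LMPP, 12 were higher and 8 lower, where 8.44% and 8.22% of all genes were. Among the lower were Cxcr3, the receptor of CXCL9 and CXCL10, at 0.81 ± 1.14 against 3.90 ± 0.48 scaled kb (-1.60 ± 0.44; adjusted p = 0.0233), and Il23r (-1.65 ± 0.20; adjusted p = 0.000125). The Cxcr3 call was lost without d+56kb LMPP library 1 (adjusted p = 0.0871), d+56kb LMPP library 2 (0.145) or MDP library 1 (0.275), with a pseudocount of 250 bases (0.0755) and with no filter (0.0915). With windows of 20 kb or the nearest-gene reading Cxcr3 differed by -0.70 and did not pass (0.167 and 0.161). In MDP against GMP, 2 were higher and 1 lower, where 1.32% and 1.1% of all genes were. Irf8 had 13.7 ± 2.84 scaled kb in MDP and 2.03 ± 0.73 in GMP (adjusted p = 0.00513), although both lack the enhancer. This call was lost without GMP library 2 (adjusted p = 0.0755) or MDP library 1 (0.0684), with no filter (0.0524) and in the nearest-gene reading (0.0545).

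In d+56kb LMPP 0 of the 59 were called by limma, where 0.536% of all genes were. In IRF8KO LMPP 0 were higher and 7 lower, 5 of them among signalling and processing genes, where 2.64% and 5.17% of all genes were higher and lower. Tbx21, which encodes T-bet, had 1.09 ± 0.15 against 4.91 ± 1.74 scaled kb (-1.47 ± 0.23; limma, adjusted p = 0.00408), but with windows of 20 kb it differed by -0.63 and did not pass (adjusted p = 0.461). Casp1, the protease that matures interleukin-18, had 0.49 ± 0.70 against 2.34 ± 0.16 (-1.24 ± 0.29; adjusted p = 0.0209), which did not pass without wild-type LMPP library 1 (0.0782) or IRF8KO library 2 (0.0508), with no filter (0.0529) or in the nearest-gene reading (0.146). The neighbouring genes Stat5a and Stat5b, which act below the interleukin-15 receptor, fell by 1.04 and 0.85 on the log2 scale (adjusted p = 0.00345 and 0.00459).

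Across the 14 libraries, the genes most like each of the 7, outside its own window, were ranked by Pearson's r of the log2 values, as a description over libraries that share their groups. Ddit4 (r = 0.99), Lipc (0.99) and Tbc1d7 (0.99) were most like Il12a, and Gpr141b (0.97), Atox1 (0.96) and Nme8 (0.96) most like Il12b. For Cxcl16 these were Serpinb9b (0.98), Pik3cb (0.97) and Ece1 (0.96), for Cxcl9 Celf6 (0.95), Pdzd3 (0.94) and Cybb (0.94), and for Cxcl10 Gm364, Fbxw11 (both 0.96) and Hnrnpll (0.95). Il15 and Il18 had lower values at the top, 0.93 for Ttyh3 and 0.93 for Grk4.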

How the data were processed

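The 22 deposited region lists were used as the authors made them. Per the submitters' processing notes, Bowtie 1.1.2, HOMER 4.9 and mm10 (GRCm38) were used, with no role given; per the file headers, HOMER called H3K27ac in histone style and CEBPA in factor style against input, and IRF8 in factor style without input, each library on its own. The deposited start and end columns are positions in bases. The deposited score column holds 1 value for all regions and was not used. The 7 input samples were not analysed here.

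Gene spans and promoters came from RefSeq GRCm38.p6. Covered bases per gene were scaled to the mean total covered length, and genes covered in at least 2 libraries were fitted on log2(bases + 1000) with limma 3.58.1 in R 4.3.3 (eBayes, trend and robust) over 14 libraries, 7 groups and 7 residual degrees of freedom. A peak was reproducible when regions of both libraries overlapped. The fit was tested on simulated data. Named pathway genes were at most the 5 with the largest called differences per comparison. The genes and lists were chosen with earlier results of these data known. Alternatives were other windows, scaling, pseudocount, filter, reproducible regions, fewer libraries and a replicate block.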

Additional observations from a re-analysis of the deposited data

How the results depend on the processing

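Over the 7 genes, 424 of 497 alternative values kept direction and side of the threshold, and 26 lost a call. Another 17 gained a call and 30 changed sign, none of these 30 from a called value. An uncalled difference that became 0 counted as kept, as for Il18 and Cxcl9 in both genotype comparisons in the nearest-gene reading. For the pathway genes named, 145 of 166 kept both and 21 lost a call, among them Tbx21 in IRF8KO LMPP with windows of 20 kb (-0.63, limma, adjusted p = 0.461) and, in fits of only the 4 libraries, Tbx21, Casp1, Stat5a and Stat5b (adjusted p = 0.593). Il18 differed by 0 in both cDC1 comparisons when regions were given to the nearest gene. It then had 0 kb in every cDC1, LMPP and LSK library compared, and the region over its start went to Bco2. That reading gave 3997 and 3756 genes called in cDC1 against LMPP and LSK, 156 in d+56kb LMPP, and 1892 and 280 in MDP against LMPP and GMP, with 1 of these 7 genes called in MDP against LMPP. Windows of 20 kb gave 1 of the 7 called in MDP against GMP. Without scaling, 3 were called in cDC1 against LSK and 3 in d+56kb LMPP, and over all genes 3252 in d+56kb LMPP and 247 in MDP against GMP. With no filter these last 2 were 277 and 269. Keeping only regions called in both libraries, which by construction removes regions that differ between duplicates, gave 10885 and 10123 genes for cDC1 against LMPP and LSK, 6096 in d+56kb LMPP, 7019 in IRF8KO LMPP, and 7461 and 3728 for MDP against LMPP and GMP, and 2, 2 and 5 of the 7 in d+56kb LMPP, IRF8KO LMPP and MDP against LMPP. Fits of only the 4 libraries compared called 0 genes in d+56kb LMPP (2168 at an unadjusted p under 0.05), 0 in IRF8KO LMPP (1423) and 1186 in MDP against GMP, with 1 of the 7. Leaving out 1 library, where the lone library is assumed to vary like the others, gave 4807 to 5938 and 4138 to 4923 genes for cDC1 against LMPP and LSK, 0 to 368 in d+56kb LMPP, 892 to 2826 in IRF8KO LMPP, 1550 to 1834 in MDP against LMPP and 33 to 100 in MDP against GMP; of the 7, 3 to 4 in each cDC1 comparison, 0 to 2 in IRF8KO LMPP and 2 to 3 in MDP against LMPP. Except where stated above, the cause was not tested.

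Changes of sign were as follows (log2 differences). With windows of 20 kb, Il15 and Cxcl16 in IRF8KO LMPP were at 0.0058 and 0.13, Il12b in MDP against LMPP at -0.037 and Il18 in MDP against GMP at 0.31. Given to the nearest gene, Cxcl16 in d+56kb LMPP was at -0.23 and Il18 in MDP against GMP at 0.44. Without scaling, Il12b, Il18, Cxcl9 and Cxcl10 in d+56kb LMPP were at 0.15, 0.15, 0.38 and 0.28, and Il12a in MDP against GMP at -0.037. A pseudocount of 250 bases put Il12b in d+56kb LMPP at 0.29. With regions of both libraries alone, Cxcl10 in cDC1 against LMPP was at -0.35 and, in IRF8KO LMPP, Il15 at 0.43, Il18 at 0.36 (called) and Cxcl9 and Cxcl10 at 0.043 each. Leaving out 1 library gave -0.64 to 0.62 for Il12b and -0.34 to 0.038 for Cxcl9 in d+56kb LMPP, -0.23 to 0.095 for Il15, -0.19 to 0.025 for Il18, -0.77 to 0.24 for Cxcl9 and for Cxcl10 and -0.42 to 0.23 for Cxcl16 in IRF8KO LMPP, and -0.070 to 0.24 for Il12a and -0.23 to 0.013 for Cxcl9 in MDP against GMP.

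Peaks in either cDC1 library numbered 56 for IRF8, and windows of 20 kb held 24 IRF8 peaks of cDC1 and 15 CEBPA peaks of Mo. Same-numbered libraries showed no shared deviations: over 21 pairs of groups their correlation ran from -0.07 to 0.08. This cannot exclude a pairing, such as shared animals, that leaves no such trace. With the replicate block, 4 of the 7 genes were called in MDP against LMPP, Il15 (-0.58, limma, adjusted p = 0.0279) added, and 73 in d+56kb LMPP, 1363 in IRF8KO LMPP and 412 in MDP against GMP over all genes. Tags per H3K27ac library ran from 1.26 to 10.9 M; how depth bears on the calls was not tested.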
